A study of Mus musculus with 6 samples.

Results

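The nuclear-encoded subunits of oxidative phosphorylation were taken by gene symbol from the deposited count tables. They were the genes of the *Nduf*, *Sdh*, *Uqcr*, *Cox4* to *Cox8* and *Atp5* families, without symbols that mark a pseudogene. This gave 84 of 24062 genes, of which 37 belong by symbol to complex I, 4 to complex II, 8 to complex III, 18 to complex IV and 17 to complex V. The group as such was selected on the CPM values (counts scaled to library size) of its genes in the comparison described here, although each member was chosen by its symbol alone. Its differences between the genotypes are therefore descriptions of these libraries. Counts of genes past the thresholds of a fit are given to describe them and are no test of the group.

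The study used bulk RNA-seq to ask which genes respond to *Runx1* and *Runx3* in mouse neurofibroma, with 3 libraries per genotype. The first genotype was *Nf1fl/fl;DhhCre*, labelled as dorsal root ganglion (DRG). The second was *Runx1fl/fl;Runx3fl/fl;Nf1fl/fl;DhhCre*, called double knockout here and labelled as neurofibroma tumor. The genotype label of these samples leaves out *Nf1fl/fl*. The paper describes the material otherwise, as tumors of the first genotype and DRG/tumors of the second. By the labels tissue and genotype go together, so their parts in a difference cannot be told apart. All mice were on a C57BL/6-I129 background, carried the same Cre and, according to the methods of the study, had both *Nf1* alleles floxed. Cre under the *Dhh* promoter acts in the Schwann cell (SC) lineage, so neurons, muscle, fat, macrophages and other cells in the tissue keep the floxed genes. The age of these mice is not given in the sources used here. Nothing in the labels says that libraries of a genotype came from separate litters, and the spread between libraries may be technical as well as biological.

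Oxidative phosphorylation makes most of the ATP of resting cells. Complexes I and II pass electrons from NADH and succinate to ubiquinone, complex III passes them on to cytochrome c, and complex IV hands them to oxygen. Complexes I, III and IV pump protons across the inner mitochondrial membrane, and complex V, the ATP synthase, uses the returning protons to make ATP. All subunits of complex II and most of those of the other complexes are encoded in the nucleus, while the mitochondrial genome encodes the remaining core subunits. Brown fat, heart, muscle and neurons are rich in these transcripts. The 13 mitochondrially encoded subunits were not analysed here.

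The libraries held 13884838, 16682194 and 15077965 counts in *Nf1fl/fl;DhhCre* replicates 1 to 3 and 12439296, 12813735 and 15760905 in the double knockout replicates. The genes targeted by the design only partly followed the labels. *Runx1* was at 131, 141 and 172 CPM (scaled by TMM factors) in *Nf1fl/fl;DhhCre* and at 84.0, 78.9 and 185 CPM in the double knockout, so that replicate 3 labelled double knockout had the highest level of all. *Runx3* was at 19.9, 15.1 and 29.9 CPM against 13.5, 10.3 and 12.1 CPM, lower in each library labelled double knockout. *Nf1* was at 302 ± 30.8 and 290 ± 44.5 CPM (SD, n = 3 each). The labels place double knockout replicate 3 in a different sequencing run from the other libraries, while the titles and the deposited data disagree on whether that run belongs to replicate 2 or 3. The fold changes and the counts of called genes were therefore also computed without either of them. Markers of sensory neurons (21 genes) and of myelinating (16 genes) and general (10 genes) SCs had counts in every library. Summed, the neuron markers were at 1550 to 3009 CPM in the libraries labelled DRG and at 7141 to 15790 CPM in those labelled tumor.

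The subunit genes together took 0.339, 0.320 and 0.353% of the counts in the *Nf1fl/fl;DhhCre* libraries and 0.699, 1.09 and 0.426% in the double knockout libraries. Summed over the 84 genes, the level was 3264, 3184 and 3411 CPM in the first genotype and 6924, 11441 and 4434 CPM in the double knockout. The *Nf1fl/fl;DhhCre* libraries lay within a narrow band, and the double knockout libraries were all above it but far apart from each other. *Atp5b* alone gave 28.8 to 35.2% of these counts per library. Without it, the sums were 2296, 2266 and 2391 CPM against 4547, 7419 and 3034 CPM, with the same order of the libraries.

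Of the 84 genes, 79 had enough counts to enter the limma-voom fit over 15652 genes. In the fit, 76 of the 79 had a log2 fold change (double knockout over *Nf1fl/fl;DhhCre*) above 0, with a median of 0.90, whereas 51.1% of all genes tested were above 0 and the median of all genes was 0.02. Genes were called when the adjusted p-value was under 0.05 and the change was more than 2-fold. By this rule 18 subunit genes (22.8%) were called higher, where 8.03% of all genes tested were called higher. By the adjusted p-value alone the number was 26 (32.9%), where the share among all genes was 11.1%. In 59 genes (74.7%) every double knockout library was above every *Nf1fl/fl;DhhCre* library, where this held for 21.8% of all genes. No subunit gene was called lower by limma-voom, where 5.36% of all genes tested were called lower. By edgeR's quasi-likelihood test none was called lower either, with 2264 of all genes called and 1289 of these higher. DESeq2 also called none lower, with 2907 of all genes called and 1671 of these higher. None was lower at an unadjusted p-value under 0.05 in any of these, a rule whose share of all genes is not given here. Because the gene group came from this same contrast, these counts stand beside the background and nothing is read from the difference.

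**Figure D1:**
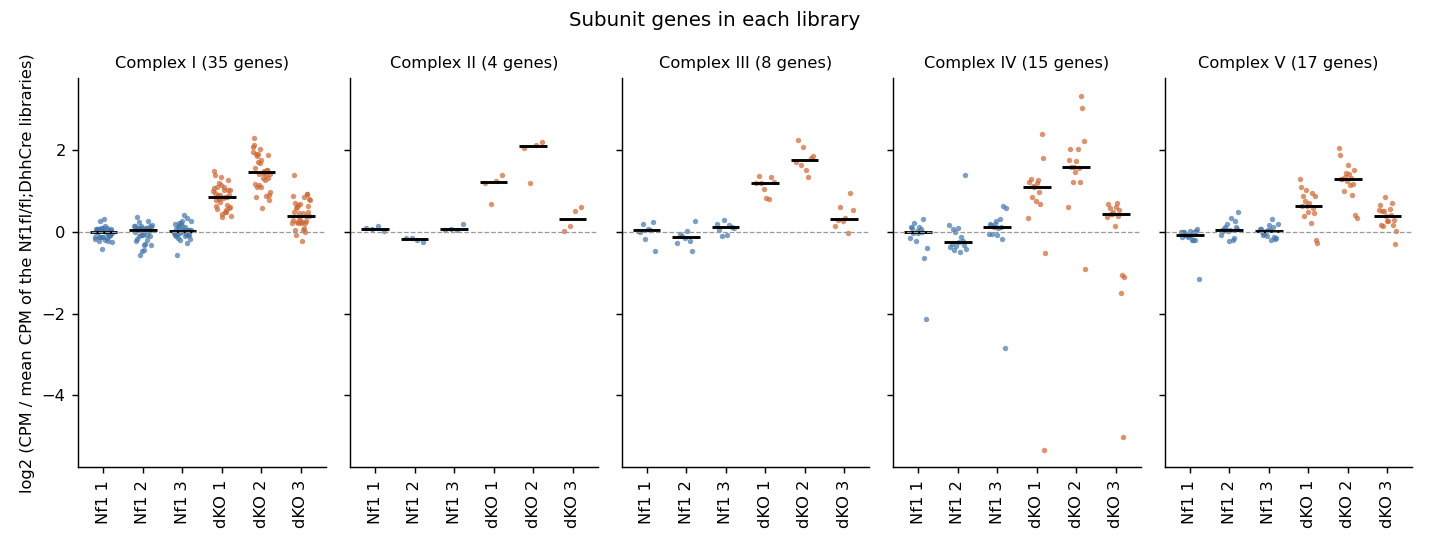
Each point is a subunit gene in a library, as log2 of its CPM over its mean CPM in the *Nf1fl/fl;DhhCre* libraries (y axis), for the 79 genes tested, by complex. Black lines are medians, Nf1 stands for *Nf1fl/fl;DhhCre* and dKO for double knockout: dKO 2 is the highest and dKO 3 the lowest of the dKO medians in every complex.

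The double knockout libraries followed the same order in most genes. Replicate 2 was the highest of all 6 libraries in 77 of the 79 genes, and the order of replicate 2 above replicate 1 above replicate 3 held in 69. Relative to the mean of the *Nf1fl/fl;DhhCre* libraries, the median gene was at 1.85-fold in double knockout replicate 1, 2.83-fold in replicate 2 and 1.32-fold in replicate 3. More than 2-fold above that mean were 33 genes in replicate 1, 67 in replicate 2 and 1, *Ndufa4*, in replicate 3. The spread within a genotype, as the highest over the lowest library, had a median of 1.24-fold over the subunit genes in *Nf1fl/fl;DhhCre* and 2.19-fold in the double knockout, where the medians over all genes tested were 1.42-fold and 1.48-fold.

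By complex, the median log2 fold change was 0.88 for complex I (35 genes tested, 8 called higher), 1.18 for complex II (4 genes, 0 called), 1.14 for complex III (8 genes, 2 called), 0.999 for complex IV (15 genes, 5 called) and 0.78 for complex V (17 genes, 3 called), where 8.03% of all genes were called higher. In complex II all 4 genes were higher at an unadjusted p-value under 0.05 in limma-voom, where 19.1% of all genes were. Of the 4, edgeR called 2, where it called 8.24% of all genes higher, and DESeq2 called 3, where it called 10.7%. The medians of the complexes differed in each double knockout library. In replicate 1 the median ratio to the *Nf1fl/fl;DhhCre* mean ran from 1.56-fold in complex V to 2.32-fold in complex II, in replicate 2 from 2.47-fold in complex V to 4.28-fold in complex II, and in replicate 3 from 1.24-fold in complex III to 1.34-fold in complex IV.

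**Figure D2:**
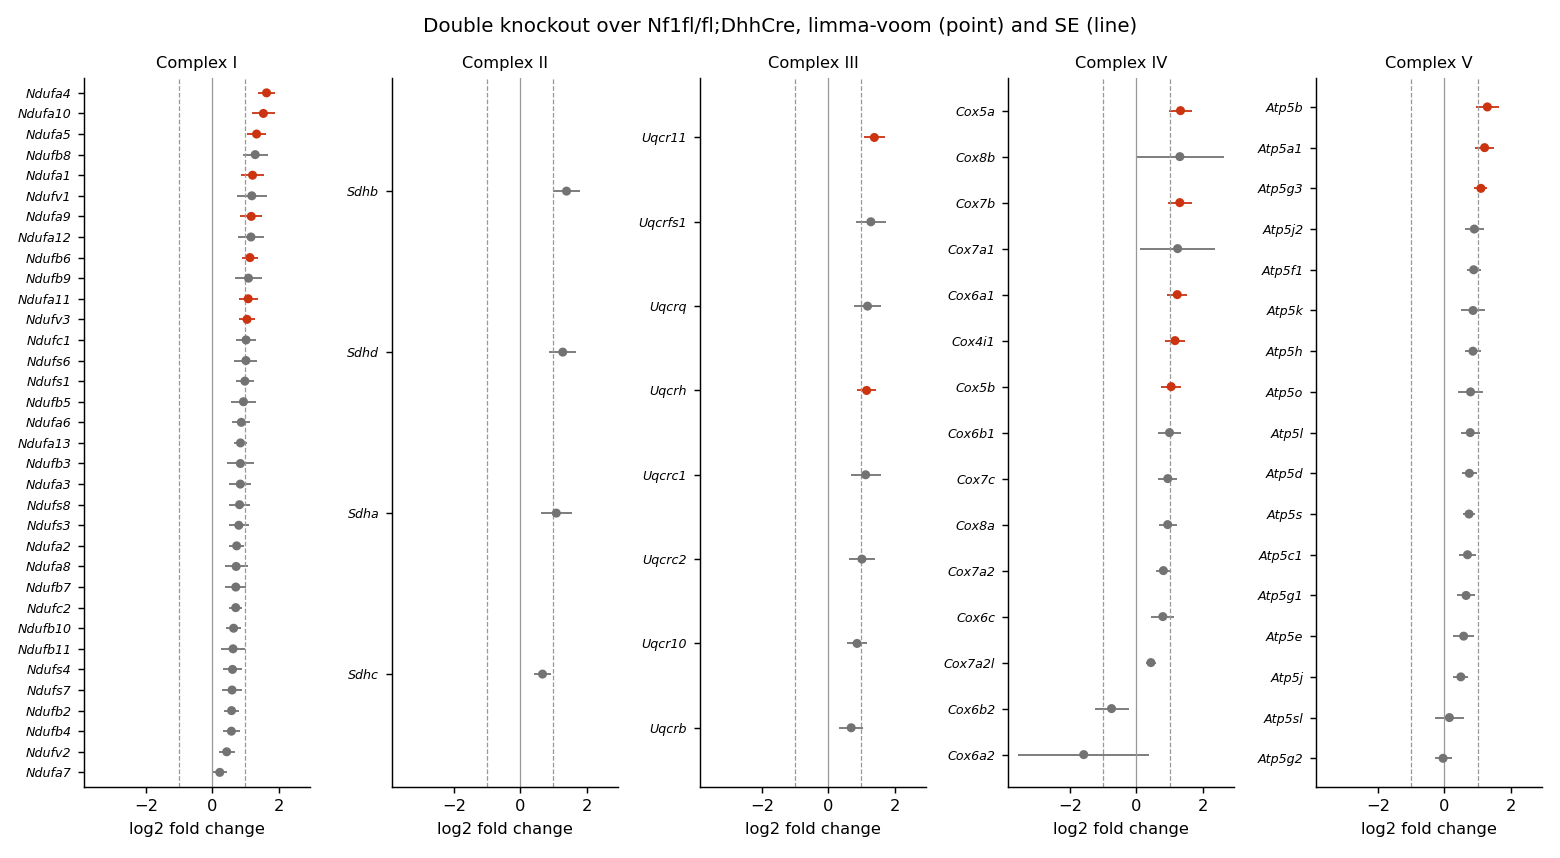
Fitted log2 fold change (x axis, point) with its standard error (line) for 78 of the 79 subunit genes tested, by complex; red marks the 18 genes past both thresholds and dashed lines mark a 2-fold change. All genes drawn of complexes I, II and III lie above 0, and *Cox6a2*, *Cox8b* and *Cox7a1* of complex IV have the widest errors.

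Levels between genes were compared per kilobase of exon (RPKM), with the union of all exons annotated for a gene in GENCODE M21 as its length. That length was 4522 bases for *Ndufb7* and 419 for *Ndufa1*, so the order of genes and complexes depends in part on the annotation. The median gene tested had a mean of 20.2 RPKM over the 6 libraries, and the range ran from 0.804 RPKM for *Ndufb7* to 421 RPKM for *Atp5b*. After *Atp5b*, the highest were *Sdha* at 132 RPKM, *Cox6a1* at 126 RPKM and *Atp5a1* at 114 RPKM. By complex, the median was 14.9 RPKM in complexes I and V, 35.7 RPKM in complex II, 27.1 RPKM in complex III and 31.5 RPKM in complex IV. Within a complex the genes tested ran from 0.804 to 76.7 RPKM in complex I and from 16.2 to 132 RPKM in complex II. They ran from 5.94 to 45.3 RPKM in complex III, from 1.30 to 126 RPKM in complex IV and from 2.40 to 421 RPKM in complex V.

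Complex I, the NADH:ubiquinone oxidoreductase, has a matrix arm that oxidises NADH and a membrane arm that pumps protons. All 35 genes tested had a log2 fold change above 0, and in 28 of them the genotypes did not overlap, where 51.1% of all genes were above 0 and 21.8% did not overlap in this direction. *Ndufa4* (chromosome 6, 11900292 to 11907497 of GRCm38, minus strand) differed most of all 79 genes. It was at 35.3, 30.1 and 40.6 CPM in *Nf1fl/fl;DhhCre* and at 92.1, 153 and 92.4 CPM in the double knockout, which is 1.64 on the log2 scale (SE 0.24). Its lowest double knockout library was more than double its highest *Nf1fl/fl;DhhCre* library, and replicate 3 was not below replicate 1 as it was in most subunit genes. The protein was first counted with complex I and was later found in complex IV. When each of the 6 libraries was left out in turn it was called 5 times, more often than any other subunit gene, and no subunit gene was called in all 6.

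*Ndufa10* (chromosome 1, 92439010 to 92473860, minus strand), an accessory subunit of the membrane arm, came next. It was at 38.1, 36.8 and 34.9 CPM against 103, 180 and 66.9 CPM, with a log2 fold change of 1.54 (SE 0.35). Its *Nf1fl/fl;DhhCre* libraries were nearly level and its double knockout libraries followed the common order. *Ndufa5*, an accessory subunit of the matrix arm, was at 7.14, 7.57 and 7.70 CPM against 18.1, 27.5 and 14.1 CPM (log2 fold change 1.34, SE 0.30). In both genes every double knockout library was above every *Nf1fl/fl;DhhCre* library.

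At the other end of complex I, *Ndufa7*, an accessory subunit of the matrix arm, was at 18.7, 17.5 and 18.9 CPM against 23.5, 27.5 and 15.8 CPM (log2 fold change 0.23, SE 0.23). The genotypes overlapped, since double knockout replicate 3 was the lowest library of all. *Ndufv2*, which carries an iron-sulfur cluster of the NADH-oxidising end, was at 42.0, 43.1 and 40.7 CPM against 61.5, 76.0 and 40.0 CPM (log2 fold change 0.44, SE 0.24), again with replicate 3 below the *Nf1fl/fl;DhhCre* libraries. *Ndufb4* of the membrane arm was at 16.2, 17.3 and 19.8 CPM against 23.9, 38.2 and 20.7 CPM (log2 fold change 0.58, SE 0.25). *Ndufb9*, also of the membrane arm, was at 41.1, 51.6 and 46.7 CPM against 97.3, 181 and 56.8 CPM (log2 fold change 1.09, SE 0.40).

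Just inside the fold threshold among called genes of all complexes were *Ndufv3* (log2 fold change 1.05), *Cox5b* (1.05) and *Ndufa11* (1.08). Just outside it were *Cox6b1* (0.999), *Ndufs1* (0.98) and *Cox7c* (0.95). Beside the 18 called genes, 8 passed the adjusted p-value but not the fold threshold, 16 passed the fold threshold but not the adjusted p-value, and 37 passed neither. *Ndufs5* had 0 counts in all 6 libraries. Only if its reads could be counted does this allow at most 0.180 to 0.241 CPM per library (3 counts, counting error only). Whether they could be counted is not known from the sources used here, so no level is given for this gene. Of the 50-base stretches in its annotated transcripts, 21.7% also occur in the transcript of *BC002163*, which was at 2.43, 2.68 and 2.18 CPM against 2.55, 2.47 and 1.91 CPM.

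Complex II, succinate dehydrogenase, is both an enzyme of the citric acid cycle and an entry point of electrons, and does not pump protons. *Sdha* (chromosome 13, 74322254 to 74350280, minus strand) encodes the flavoprotein that oxidises succinate. It was at 332, 281 and 326 CPM in *Nf1fl/fl;DhhCre* and at 714, 1305 and 315 CPM in the double knockout, with a log2 fold change of 1.09 (SE 0.46). Double knockout replicates 1 and 2 were each more than double every *Nf1fl/fl;DhhCre* library, while replicate 3 was within their range. *Sdhb*, the iron-sulfur subunit, was at 18.8, 15.5 and 21.4 CPM against 48.8, 84.8 and 28.5 CPM (log2 fold change 1.39, SE 0.40). The membrane anchors were *Sdhc*, at 76.2, 65.4 and 75.8 CPM against 116, 166 and 80.3 CPM (0.67, SE 0.26), and *Sdhd*, at 30.3, 23.9 and 28.6 CPM against 64.9, 121 and 39.1 CPM (1.28, SE 0.40). In these 3 genes replicate 3 was above the *Nf1fl/fl;DhhCre* libraries, most narrowly in *Sdhc*.

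Complex III, the cytochrome bc1 complex, has its cytochrome b encoded in the mitochondria and its other subunits in the nucleus. *Uqcrfs1*, the Rieske iron-sulfur protein that takes electrons from ubiquinol, was at 32.04, 30.8 and 33.4 CPM against 83.0, 151 and 39.5 CPM (log2 fold change 1.28, SE 0.46). *Uqcrc2*, a core protein facing the matrix, was at 52.4, 42.5 and 58.7 CPM against 117, 167 and 56.4 CPM (1.01, SE 0.39), with replicate 3 inside the *Nf1fl/fl;DhhCre* range. The called genes were *Uqcr11* and *Uqcrh*, both small subunits. *Uqcr11* was at 9.43, 5.84 and 8.79 CPM against 20.3, 27.9 and 15.5 CPM (1.39, SE 0.31). *Uqcrh*, the hinge protein, was at 30.9, 24.9 and 24.9 CPM against 61.9, 84.2 and 41.3 CPM (1.15, SE 0.28). In both, every double knockout library was above every *Nf1fl/fl;DhhCre* library. *Uqcrb*, another small subunit, was at 13.2, 11.1 and 14.4 CPM against 22.4, 33.1 and 12.7 CPM (0.69, SE 0.36), the smallest difference in the complex. *Uqcrq* (1.18) and *Uqcr10* (0.87) lay between.

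Complex V joins a catalytic head, whose alpha and beta subunits alternate around the gamma stalk, to a rotor of c subunits in the membrane. *Atp5b* (chromosome 10, 128083273 to 128090391, plus strand), the catalytic beta subunit, was at 968, 918 and 1020 CPM in *Nf1fl/fl;DhhCre* and at 2377, 4022 and 1400 CPM in the double knockout (log2 fold change 1.29, SE 0.34). *Atp5a1*, the alpha subunit, was at 188, 215 and 217 CPM against 445, 762 and 325 CPM (1.21, SE 0.29). *Atp5c1*, the gamma subunit, was at 82.4, 84.0 and 82.0 CPM against 129, 205 and 93.5 CPM (0.70, SE 0.27). The genotypes did not overlap in any of the 3. The fitted difference was smaller in the stalk subunit than in the head subunits, which was not tested.

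The c subunit is encoded by a family whose members give the same mature protein. *Atp5g3* (chromosome 2, 73908447 to 73911326, minus strand) was at 27.7, 34.4 and 28.0 CPM against 61.0, 80.9 and 54.4 CPM (log2 fold change 1.10, SE 0.19) and was called. *Atp5g1* was at 17.1, 25.1 and 17.2 CPM against 23.1, 44.0 and 29.1 CPM (0.65, SE 0.28), with overlap. *Atp5g2* was at 8.67, 8.76 and 7.44 CPM against 7.17, 11.02 and 6.80 CPM (-0.04, SE 0.26), the only subunit gene of complex V whose fitted difference was not above 0. Its transcripts share 38.3% of their 50-base stretches with other annotated genes, the most after *Atp5o* among the subunit genes, so that its counts are less certain. *Atp5j*, the coupling factor F6 in the stator, was at 43.4, 49.8 and 44.6 CPM against 59.9, 91.9 and 50.4 CPM (0.50, SE 0.23).

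Some genes that match the symbol patterns encode no subunit. *Atp5s*, a regulatory factor of the synthase, was at 12.8, 11.6 and 14.0 CPM against 19.3, 24.0 and 21.0 CPM (log2 fold change 0.74, SE 0.18), and *Atp5sl*, whose protein helps to assemble complex I, was at 3.19, 10.01 and 8.15 CPM against 5.90, 8.96 and 7.26 CPM (0.15, SE 0.44). *Cox7a2l*, a factor that joins complexes III and IV into supercomplexes, was at 71.3, 88.7 and 76.4 CPM against 99.1, 121 and 101 CPM (0.44, SE 0.14). None of the 3 was called. Without them the median log2 fold change of the other 76 genes was 0.94. *Ndufa4l2*, which resembles *Ndufa4* and is known for its rise in low oxygen, stayed between 0 and 0.513 CPM.

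Complex IV, cytochrome c oxidase, is where tissues differ in their subunits, since several positions can be filled by a general or by a heart and muscle isoform. The general isoforms followed the other complexes. *Cox6a1* (chromosome 5, 115345642 to 115348981, minus strand) was at 55.8, 39.4 and 58.9 CPM against 119, 174 and 82.1 CPM (log2 fold change 1.23, SE 0.30). *Cox4i1*, the regulatory subunit of most tissues, was at 22.1, 24.3 and 21.6 CPM against 51.8, 75.9 and 34.5 CPM (1.16, SE 0.29). *Cox5a*, which has no isoform partner, was at 18.3, 14.4 and 18.3 CPM against 41.0, 69.4 and 27.7 CPM (1.33, SE 0.35).

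*Cox7b* was at 48.7, 37.1 and 50.9 CPM against 113, 185 and 68.8 CPM (1.31, SE 0.36). *Cox8a* was at 40.6, 25.8 and 37.9 CPM against 75.4, 81.3 and 46.7 CPM (0.94, SE 0.27), *Cox7a2* at 18.7, 17.2 and 20.1 CPM against 30.0, 43.8 and 27.2 CPM (0.81, SE 0.22), and *Cox6b1* at 19.3, 13.2 and 22.8 CPM against 36.5, 54.2 and 24.0 CPM (0.999, SE 0.34). In each of these general isoforms the lowest double knockout library was above the highest *Nf1fl/fl;DhhCre* library. In replicate 3 the excess was small in *Cox6b1* and *Cox8a*.

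The isoforms named after heart and muscle did not follow the genotypes. *Cox6a2* (chromosome 7, 128205435 to 128206387, minus strand) was at 1.46, 16.9 and 0.898 CPM in *Nf1fl/fl;DhhCre* and at 0.159, 30.1 and 0.198 CPM in the double knockout. The high libraries were replicate 2 of each genotype, and these were also the libraries high in skeletal muscle markers. Its fitted log2 fold change of -1.58 had an SE of 1.97. *Cox7a1* (chromosome 7, 30184144 to 30186078, plus strand) was at 2.91, 3.63 and 7.12 CPM against 16.1, 37.3 and 2.18 CPM (log2 fold change 1.24, SE 1.13), and *Cox8b* (chromosome 7, 140898945 to 140900446, minus strand) at 7.21, 4.94 and 5.13 CPM against 30.4, 57.7 and 2.05 CPM (1.31, SE 1.33). Both were high in double knockout replicates 1 and 2, and replicate 3 had the lowest level of all libraries. Unlike *Cox6a2*, neither was highest of its genotype in *Nf1fl/fl;DhhCre* replicate 2, which was high in muscle markers (3.63 and 4.94 CPM). In double knockout replicate 3 alone, the fitted log2 fold changes were -1.47 for *Cox8b*, -0.97 for *Cox7a1* and -3.72 for *Cox6a2*.

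As a share of the counts of each pair, *Cox8b* made up 15.1, 16.1 and 11.9% of *Cox8a* and *Cox8b* in *Nf1fl/fl;DhhCre* and 28.8, 41.5 and 4.19% in the double knockout. The exact 95% binomial interval of replicate 3 was 2.87 to 5.90%, below those of all other libraries, the lowest of which began at 9.57%. *Cox7a1* made up 13.5, 17.5 and 26.1% of its pair with *Cox7a2* against 34.9, 45.9 and 7.42%. *Cox6a2* made up 2.54, 29.9 and 1.502% of its pair with *Cox6a1* against 0.134, 14.7 and 0.241%. The intervals cover counting error only, since reads amplified by PCR are not independent molecules. An exon of *Cox6a2* overlaps the gene *Itgad* on the opposite strand, and whether reads were counted by strand is not stated.

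**Figure D3:**
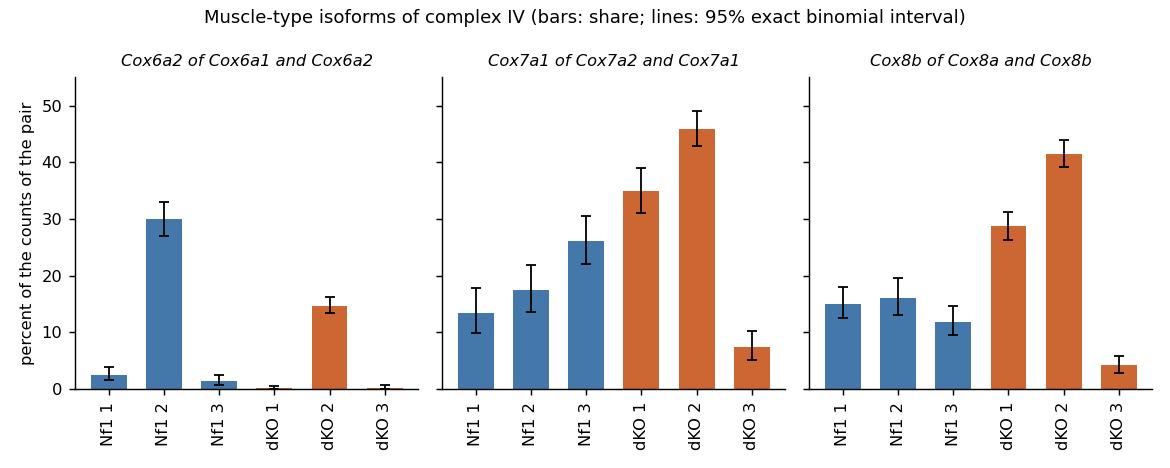
Share of the counts of each complex IV isoform pair (y axis, percent) that fell on the form named after heart and muscle. Libraries are 3 *Nf1fl/fl;DhhCre* (Nf1, blue) and 3 double knockout (dKO, orange), with exact 95% binomial intervals. *Cox6a2* is high in replicate 2 of both genotypes, whereas *Cox7a1* and *Cox8b* are highest in dKO 1 and dKO 2 and lowest in dKO 3.

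The remaining isoforms were rare. *Cox6b2*, known from testis, was at 1.39, 1.37 and 2.76 CPM against 1.28, 0.987 and 0.858 CPM (log2 fold change -0.75, SE 0.51), the only subunit gene in which every double knockout library was below every *Nf1fl/fl;DhhCre* library. *Cox4i2*, known from lung, stayed between 0 and 0.822 CPM. *Cox7b2* had 1 count in all libraries together, and *Cox8c* had 0 counts in each, with the same upper limits and condition as for *Ndufs5*. Without *Cox6a2*, *Cox7a1*, *Cox8b* and *Cox6b2*, the 11 other genes of complex IV ranged in log2 fold change from 0.44 to 1.33, with a median of 0.999.

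Other genes of the pathway were examined in lists. Among chain genes outside the symbol patterns, all 6 tested had a log2 fold change above 0 and 3 were called higher, where 51.1% of all genes were above 0 and 8.03% called higher. *Cycs*, cytochrome c itself, was at 99.6, 78.8 and 90.2 CPM against 256, 406 and 128 CPM (log2 fold change 1.40, SE 0.39). *Usmg5*, a small subunit of the ATP synthase, was at 9.09, 9.17 and 6.48 CPM against 18.0, 22.9 and 14.1 CPM (1.13, SE 0.26). *2010107E04Rik*, another small protein of the synthase, was at 18.2, 16.8 and 15.01 CPM against 35.9, 47.0 and 36.4 CPM (1.24, SE 0.18), and here double knockout replicate 3 was level with replicate 1. All 3 were above the *Nf1fl/fl;DhhCre* libraries in each double knockout library.

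Assembly factors, general mitochondrial proteins and mitochondrial ribosomal proteins had smaller medians than the subunit genes, and in each of these 3 lists a smaller share was called higher than the 8.03% of all genes. Of 41 assembly factors tested, 2 were called higher, with a median log2 fold change of 0.47. These were *Lyrm7*, which inserts the Rieske protein into complex III (2.91, 3.93 and 5.77 CPM against 19.1, 10.6 and 11.8 CPM, log2 fold change 1.70), and *Cox17*, a copper chaperone for complex IV (7.84, 6.32 and 8.85 CPM against 14.7, 21.8 and 12.9 CPM, log2 fold change 1.07). Of 22 general mitochondrial proteins, 1 was called higher, *Slc25a4*, the ADP/ATP carrier of muscle and nerve, at 171, 286 and 155 CPM against 364, 730 and 568 CPM. All 22 had a log2 fold change above 0 and their median was 0.69. Of 77 mitochondrial ribosomal proteins, 2 were called higher, *Mrpl12* (log2 fold change 1.37) and *Mrpl41* (1.20), and the median of the list was 0.39.

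Regulators of mitochondrial biogenesis and of mitochondrial DNA had fitted differences on both sides of 0. The median log2 fold change of the 19 tested was -0.17, 9 were above 0, and 2 were called higher, a share close to the 8.03% of all genes. No regulator was called lower by limma-voom, where 5.36% of all genes were, nor by edgeR or DESeq2. In each of these, 1 was lower at an unadjusted p-value under 0.05. *Ppargc1a*, the coactivator PGC-1alpha, was at 79.2, 92.6 and 65.0 CPM against 155, 196 and 138 CPM (1.04, SE 0.19). *Esrrg*, an estrogen-related receptor that works with it, was at 11.4, 9.77 and 7.70 CPM against 20.6, 39.6 and 28.0 CPM (1.58, SE 0.30). In both genes double knockout replicate 3 was well above the *Nf1fl/fl;DhhCre* libraries, unlike in most subunit genes. Its log2 fold change taken alone was 0.80 for *Ppargc1a* and 1.54 for *Esrrg*.

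*Ppargc1b*, a related coactivator, was at 4.51, 1.67 and 4.62 CPM against 16.3, 27.0 and 4.42 CPM (1.88, SE 0.85), with replicate 3 inside the *Nf1fl/fl;DhhCre* range. *Nrf1*, which encodes nuclear respiratory factor 1, was at 40.2, 39.1 and 43.3 CPM against 35.5, 32.2 and 35.7 CPM (log2 fold change -0.24, SE 0.13), and *Esrra* was at 2.84, 3.10 and 3.21 CPM against 3.83, 4.36 and 2.05 CPM (0.05, SE 0.38). *Gabpa*, which encodes an ETS factor, was at 235, 205 and 227 CPM against 191, 216 and 167 CPM (-0.22, SE 0.13). *Tfam*, which packages mitochondrial DNA, was at 11.7, 11.2 and 12.8 CPM against 12.3, 17.5 and 12.6 CPM (0.22, SE 0.21). None of these 5 was called. They were singled out after their values were seen, as regulators with a known role at subunit promoters or at mitochondrial DNA.

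The region around the start site of subunit genes was searched on both strands for letters that known factors bind. These were nuclear respiratory factor 1 (NRF1, GCGCANGCG), ETS factors (CCGGAAG), YY1 (AAGATGGC) and estrogen-related receptors (ERR, TCAAGGTCA). RefSeq windows on GRCm38.p6, from 250 bases before to 50 bases after the start site, were at hand for 69 of the 84 genes, as 75 windows. The NRF1 letters were in 28.0% of these windows, where 11.4% of the 14661 windows of genes tested held them. The ETS letters were in 21.3% (14.7% among genes tested), the YY1 letters in 16% (3.81%) and the ERR letters in 2.67% (0.273%). No matches of different motifs overlapped. The windows of all genes, tested or not, held the 4 motifs in 6.25, 8.86, 2.75 and 0.423%.

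Stretches of these windows are shown for subunit genes described above, 5′ to 3′ on the strand of the gene, which is the minus strand in each case, with the matched letters in capitals. They were chosen to show the NRF1 letters in genes of complexes I, II, IV and V, including *Atp5g2*, whose fitted difference was near 0, and an example of each other motif. In *Atp5g3* the ERR letters read on the opposite strand, so that their reverse complement is shown.
Cox6a1, NRF1, chr5:115349047-115349095: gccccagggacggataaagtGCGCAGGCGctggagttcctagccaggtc
Sdha, NRF1, chr13:74350310-74350358: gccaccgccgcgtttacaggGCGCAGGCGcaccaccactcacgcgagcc
Sdhd, NRF1, chr9:50603900-50603948: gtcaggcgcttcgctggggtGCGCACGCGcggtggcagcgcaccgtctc
Ndufa5, NRF1, chr6:24527688-24527736: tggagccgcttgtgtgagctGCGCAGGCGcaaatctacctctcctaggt
Atp5g2, NRF1, chr15:102671061-102671109: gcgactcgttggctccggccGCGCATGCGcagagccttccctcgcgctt
Uqcr11, ETS, chr10:80406861-80406907: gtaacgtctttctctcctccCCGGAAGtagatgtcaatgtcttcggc
Atp5j, YY1, chr16:84835037-84835084: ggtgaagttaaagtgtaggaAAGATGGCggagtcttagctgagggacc
Atp5g3, ERR, chr2:73911350-73911398: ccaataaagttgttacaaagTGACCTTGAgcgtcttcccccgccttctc

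The matched letters of *Cox6a1* lie 117 to 109 bases before the start site, those of *Sdha* 98 to 90 and those of *Atp5g2* 42 to 34 bases before it. The YY1 letters shown for *Atp5j* lie 88 to 81 bases before it. Most YY1 matches lay after the start site instead, as in *Ndufc1* at 22 to 29 bases after it. Of the subunit genes tested with a window, the median log2 fold change was 0.88 over the 19 with the NRF1 letters and 0.89 over the 48 without. With the ETS letters the median was 0.90 over 16 genes and without them 0.88 over 51. With the YY1 letters it was 0.88 over 11 genes and without them 0.91 over 56. The ERR letters were in 2 genes only, *Atp5g3* (log2 fold change 1.10) and *Sdhd* (1.28). A match is a description of the sequence and not a binding site shown here, and 15 subunit genes had no window.

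The tissue was not sorted, and in bulk RNA fewer cells of a type and less RNA per cell cannot be told apart. Lists of cell-type markers were therefore set beside the subunit genes, as a score, which is the mean log2 CPM of the genes of a list in each library. The subunit score was 4.25, 4.29 and 4.35 in *Nf1fl/fl;DhhCre* and 5.13, 5.83 and 4.62 in the double knockout. The score of 10 adipocyte markers was 4.59, 0.69 and 4.71 against 6.62, 6.93 and 2.88. It was thus high in double knockout replicates 1 and 2, the libraries with the highest subunit levels, and lower in replicate 3 than in *Nf1fl/fl;DhhCre* replicates 1 and 3. *Ucp1*, the uncoupling protein that defines brown fat, was at 99.9, 1.91 and 103 CPM against 408, 838 and 23.0 CPM, and *Cidea*, also known from brown fat, was at 8.46, 0 and 8.15 CPM against 35.2, 69.7 and 0.462 CPM. Summed over the list, the adipocyte markers were at 94.1 to 613 CPM in *Nf1fl/fl;DhhCre* and at 177 to 2283 CPM in the double knockout. *Cidea* and *Lep* had 0 counts in *Nf1fl/fl;DhhCre* replicate 2, and every marker had counts in the other libraries.

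**Figure D4:**
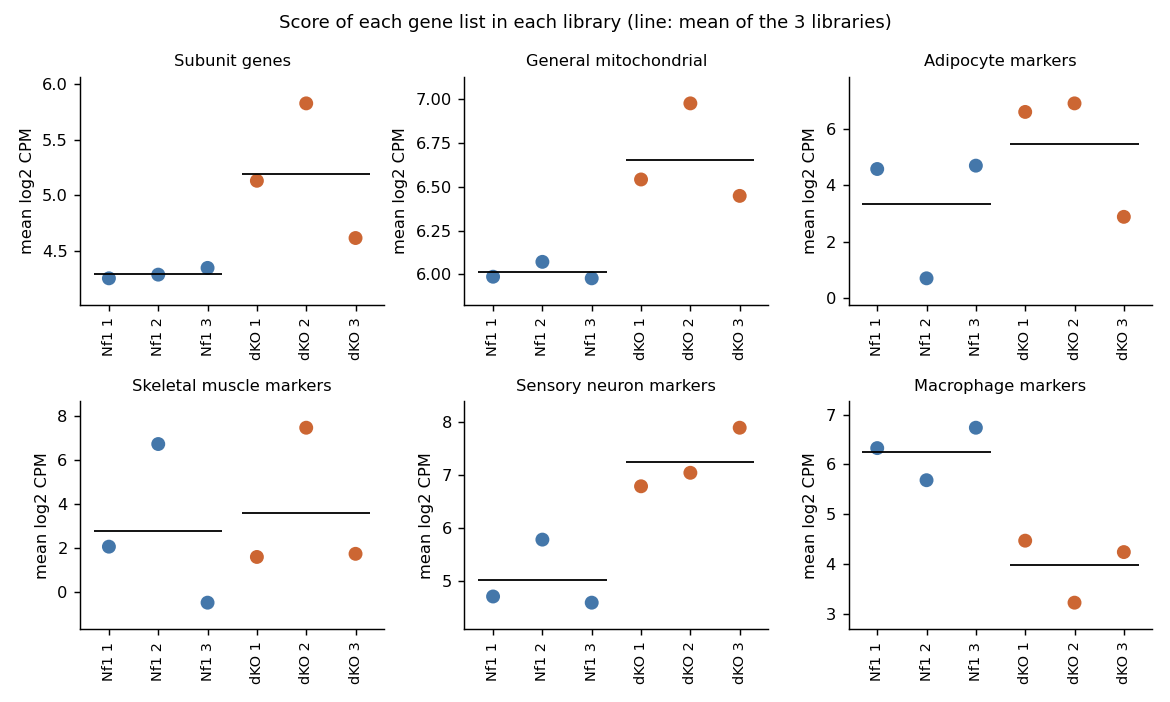
Mean log2 CPM (y axis, a separate scale in each panel) of the subunit genes and of 5 other gene lists in each library; Nf1 is *Nf1fl/fl;DhhCre*, dKO is double knockout and lines are means of 3 libraries. The subunit genes run from 4.25 to 4.35 in the Nf1 libraries and reach 5.83 in dKO 2, while adipocyte markers are highest in dKO 1 and dKO 2 and sensory neuron markers in dKO 3.

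The score of the skeletal muscle markers was 2.04, 6.71 and -0.51 against 1.57, 7.45 and 1.71, so that replicate 2 of each genotype stood apart. In *Nf1fl/fl;DhhCre* replicate 2 the subunit score lay between those of the other libraries of its genotype while its muscle score was high. Over the list, 15 of 20 muscle markers tested had a log2 fold change above 0 and 0 were called by limma-voom, edgeR or DESeq2, with 0 at an unadjusted p-value under 0.05 in limma-voom and edgeR and 1, lower, in DESeq2. Their summed level was 84.4 to 7644 CPM against 161 to 23170 CPM, and *Myh7*, *Tnnc1*, *Tnnt1*, *Myh4*, *Tnnc2* and *Ckmt2* were at 0 in at least 1 library. Of the 10 adipocyte markers, 9 had a log2 fold change above 0 with a median of 2.25, and 0 were called by the 3 tools. At an unadjusted p-value under 0.05 these gave 0 in limma-voom, 1 in edgeR and 2 in DESeq2.

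Sensory neuron markers, with a score of 4.71, 5.78 and 4.59 against 6.79, 7.04 and 7.89, were highest in double knockout replicate 3, where the subunit genes were lowest among the double knockout libraries. Of 21 markers tested, 20 were called higher, where 8.03% of all genes were. The score of myelinating SC markers was 6.56, 6.40 and 6.40 against 7.82, 7.55 and 7.87, with 12 of 16 called higher. That of general SC markers was 7.28, 7.48 and 7.21 against 7.57, 7.23 and 7.68, with 2 of 10 called higher, 6 below 0 and a median log2 fold change of -0.08. Macrophage markers were at 6.33, 5.68 and 6.74 against 4.47, 3.22 and 4.24, with 12 of 14 called lower, and 6 of 10 fibroblast markers were called lower, where 5.36% of all genes were. All of these lists had counts for every marker in every library. The part of each cell type in the levels of the subunit genes was not tested.

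The subunit genes were also fitted without the libraries that stand apart, and with the adipocyte score as a term, alternatives chosen after seeing the data. With the adipocyte score in the fit the median log2 fold change of the subunit genes was 0.66, with 76 of 79 above 0 and 6 called (7.59%), where 10.2% of all genes were called higher. Without the library high in muscle of each genotype it was 0.61, with 76 of 79 above 0 and 4 called (5.06%), where the share of all genes was 6.55%. With the muscle score as a term and all 6 libraries, it was 0.90 and 24 were called (30.4%, against 8.12% of all genes). Against double knockout replicate 3 alone, the library in which *Runx1* was not reduced, the median was 0.39 over 80 genes, with 70 above 0 and 1 called (1.25%, against 6.33% of all genes), *Ndufa4*. Its spread was taken from the *Nf1fl/fl;DhhCre* libraries.

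Without double knockout replicate 3, the median over the subunit genes was 1.19 and 51 genes were called (63.8%, against 7.02% of all genes called higher). Without replicate 2 it was 0.63 and 3 were called (3.80%, against 4.32% of all genes). The share of subunit genes called was below the share of all genes called higher in each fit that left out a single library other than double knockout replicate 3, with that replicate alone, without the muscle-high libraries and with the adipocyte score. Without *Nf1fl/fl;DhhCre* replicate 1, no subunit gene was called by limma-voom, where 1.13% of all genes were called higher, the median was 0.91 and 34 were higher at an unadjusted p-value under 0.05. With all 6 libraries, edgeR's quasi-likelihood test called 25 (31.6%, against 8.24% of all genes) and DESeq2 called 37 (46.8%, against 10.7%). The direction of the median was the same in each of these fits, while the number of genes called depended on which libraries entered.

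**Figure D5:**
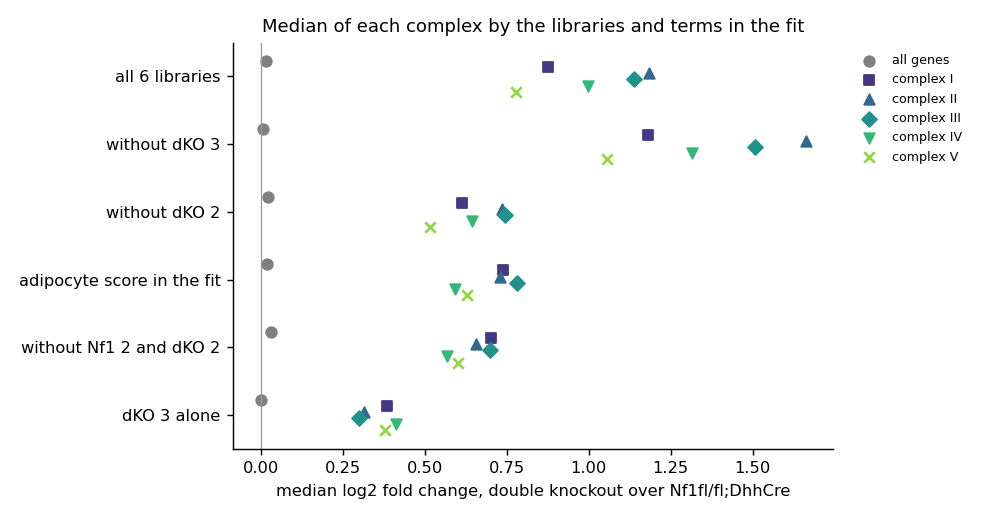
Median log2 fold change of the genes of each complex and of all genes (x axis), over genes tested in the fit of all libraries, for fits that differ in the libraries or terms they hold (y axis; Nf1 2 and dKO 2 are replicate 2 of *Nf1fl/fl;DhhCre* and of the double knockout). The medians of all genes stay near 0, and those of the complexes are highest without dKO 3 and lowest with dKO 3 alone.

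Single genes differed in how much rested on double knockout replicates 1 and 2. With double knockout replicate 3 alone, *Ndufa4* had a log2 fold change of 1.38, *Uqcr11* 0.97, *Ndufa5* 0.90, *Ndufb6* 0.89, *Ndufa10* 0.85 and *Atp5g3* 0.84, while *Sdha* was at -0.0012, *Uqcrb* at -0.03 and *Ndufa7* at -0.23. With the adipocyte score in the fit, *2010107E04Rik* kept a log2 fold change of 1.19 and *Ppargc1a* of 1.03. Other genes of the same lists fell more, such as *Cycs* from 1.40 to 0.96 and *Ppargc1b* from 1.88 to 0.95. *Ucp2*, an uncoupling protein known from macrophages and other immune cells, was called lower, at 264, 277 and 388 CPM against 191, 109 and 153 CPM, and was the only gene of 5 uncoupling proteins called by limma-voom.

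Overlapping genes limit some of these counts. Exons of 20 subunit genes overlap a gene on the opposite strand, among them *Atp5a1* (*Haus1*), *Cox4i1* (*Emc8*) and *Atp5j* (*Gabpa*), and those of 2, *Atp5o* and *Atp5g2*, overlap a gene on the same strand. In 19 of the 84 genes more than 10% of the 50-base stretches of their annotated transcripts occur in transcripts of another gene, and in 35 none do. How reads with several alignments were counted is not stated, so the counts of such genes are less certain than those of the others.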

How the data were processed

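Total RNA from mouse DRG/tumors was amplified (Ovation RNA-Seq System v2), made into Nextera XT libraries, sequenced paired-end, aligned to mm10 with TopHat and counted per gene with featureCounts by the authors. The authors deposited raw counts per gene, without normalization. Neither the annotation, nor whether strand was used, nor how multi-mapping reads were handled is given in the sources used here. Base calling with CASAVA 1.4 is named in the submitters' processing notes.

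Groups were taken from the labels, and replicate numbers were given in accession order. Genes passing filterByExpr (minimum count 10, minimum total 15) entered limma-voom after TMM scaling (limma 3.58.1, edgeR 4.0.16, R 4.3.3) with genotype as the only term, two-sided, with Benjamini-Hochberg adjustment over all 15652 genes. Library totals were 12439296 to 16682194 counts, and 3 counts correspond to 0.180 to 0.241 CPM. TMM factors were 0.950 to 1.04. CPM used these factors, and scores used a prior count of 0.5. RPKM used the length of the union of annotated exons from GENCODE M21 (GRCm38, the sequence of mm10). Promoter windows came from RefSeq. The fit was tested on simulated data. As alternatives, the fit was repeated with DESeq2 1.42.0, edgeR's quasi-likelihood test, DESeq2 size factors, library size only, other filters (CPM above 1 in at least 3 libraries, or any count), quality weights, a muscle score term and leaving out each library. A single-library contrast, leaving out both muscle-high libraries and an adipocyte score term were added after seeing the data.

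The genes, lists and tests were chosen with earlier results of these data known. Genes were named by rule. In each complex these were the 3 highest by CPM, the 3 highest and the 3 lowest log2 fold changes, isoform pairs, genes that encode no subunit and genes not tested. In each other pathway list they were up to 4 called genes with the largest change. Other genes were named outside this rule, after their values were seen, among them uncalled regulators, cell-type markers and subunit genes near a threshold, high in a single library or with shared sequence. A gene that this rule names in complex I is not reported here by name.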

Additional observations from a re-analysis of the deposited data

How the results depend on the processing

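No paired analysis was possible because the labels give mouse numbers only, so the replicate numbers name libraries and pair none of them. The 79 subunit genes rest on 3 libraries a genotype. In some genes the double knockout libraries differ more from each other than the genotypes do. The number called shifted with the tool and with single libraries of either genotype, while the medians stayed above 0 in every fit made. The cause of these shifts was not tested. Genes near 0 counts cannot be compared at this depth.

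Of 79 subunit genes tested, 18 were called, against 37 by DESeq2 and 36 with quality weights, where 8.03, 10.7 and 9.72% of all genes were called higher. Of 80 tested with double knockout replicate 3 alone, 1 was called, and of 79 tested, 4 without both libraries high in muscle markers and 6 with the adipocyte score, in these 3 fits a smaller share than among all genes (1.25% against 6.33%, 5.06% against 6.55% and 7.59% against 10.2%). By the adjusted p-value alone (26 genes, where 11.1% of all genes passed) these gave 56, 54, 1, 6 and 15, where 15.9, 14.3, 6.99, 7.52 and 13.6% of all genes passed. Leaving out each library in turn gave 0 to 51 called genes (0 without *Nf1fl/fl;DhhCre* replicate 1, where 34 had an unadjusted p-value under 0.05, and 51 without double knockout replicate 3) and 0 to 59 by the adjusted p-value alone. In the 2 fits at these ends 1.13 and 7.02% of all genes were called higher and 1.20 and 8.79% passed the adjusted p-value alone. With double knockout replicate 3 alone the median log2 fold change was 0.39 over all subunit genes. It was 0.39 in complex I, 0.32 in complex II, 0.30 in complex III, 0.41 in complex IV and 0.38 in complex V. The log2 fold change of *Runx1* turned to 0.32. Of all genes, 2096 were called, 1282 with that replicate alone and 362 (without *Nf1fl/fl;DhhCre* replicate 1) to 2285 when each library was left out. The other mitochondrial lists held 6 chain genes, 41 assembly factors, 19 regulators, 22 general, 5 uncoupling and 77 ribosomal proteins tested. Of these, 11 were called, *Ucp2* lower and the others higher, where 2096 of 15652 genes were called. DESeq2 called 21 (2907 of all genes), library size only 7 (2115) and quality weights 20 (2512). Without both muscle-high libraries 5 were called (1752 of 15763 genes). When each library was left out 0 to 25 were called, where 362 to 2285 of all genes were.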
